A study of Drosophila melanogaster and Drosophila virilis with 60 samples.

Results

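The 8 genes described here encode the insulin-like peptides of *D. melanogaster*, Ilp1 to Ilp8. They were chosen by gene identity, as the entries of the deposited expression table that carry their identifiers, and no expression value entered the choice. All 8 were found among the 14127 genes listed, and all 8 were among the 14047 genes whose values varied and could be tested.

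The study followed development by RNA-seq of polyadenylated RNA from whole animals in *D. melanogaster* and *D. virilis*, and *D. virilis* was not analysed here. The samples were wild-type Oregon-R animals, with no mutation, transgene or treatment, reared on a standard wheat meal and yeast medium. They comprised embryos 10 h after egg laying at the phylotypic stage, larvae, 5 early pupal stages (P1, the newly formed puparium, to P5), pupae at 24 h and 48 h, and imagoes, which were males 5 days of age. Each library was made from pooled animals, with 3 independent biological replicates per stage, and outside the imago sexes were mixed in a ratio that was not checked. The larval group was an exception, since its libraries came from different instars, each collected about midway between molts. The 1st and 3rd instar libraries were used, whereas the 2nd instar library, which the study left out for its quality, is described apart.

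Counts were recovered by inverting the transformation applied by the authors, and the 30 libraries held 7350353 to 13434700 counts. These totals take the smallest step of the recovered values as 1 count. They are several times larger than the read numbers stated in the paper, and why was not resolved. If the smallest step is not 1 read, the printed counts and the limits set at 3 counts do not stand for reads. Tests on the deposited values do not use the counts, and CPM and ratios of means do not change with a common factor. Normalised counts are these counts divided by the size factor of the library, and differences and their tests are on the deposited log2 scale, which compresses differences between low counts. Calls refer to limma with the Benjamini-Hochberg adjustment over all genes tested and an adjusted p under 0.05. The choice of scale mattered in the larvae. The median difference between larvae and the other 9 stages over all genes was -0.15 on the deposited scale and -0.90 on the log2(CPM + 1) scale, and for P1 after larvae the medians were 0.03 and 0.68. The ratio of normalised counts to CPM, relative to its mean on the log2 scale, was 0.14 in the 1st instar library and 2.13 in the 3rd instar library. Larval serum and fat body genes summed to 0.64 CPM in the 1st instar library and 58005 CPM in the 3rd, and male tract genes summed to 1855 to 2154 CPM in imagoes, with at most 207 CPM in any other library used. In whole animals, fewer cells of a type and less RNA per cell cannot be told apart.

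Insulin-like peptides are secreted hormones that couple nutrition to growth, metabolism and developmental timing. Most of them act through the insulin receptor InR, its substrate chico and phosphoinositide 3-kinase to activate the kinase Akt, which in turn inactivates the transcription factor foxo. Ilp2, Ilp3 and Ilp5 are made by the insulin-producing cells of the brain, Ilp6 mainly by the fat body, and Ilp7 by neurons of the nerve cord. Ilp8 differs from the others in that it resembles relaxins, is released by growing or damaged imaginal discs and signals through the receptor Lgr3 to delay metamorphosis.

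Ilp1 to Ilp5 lie side by side on chromosome arm 3L, between positions 9798420 and 9823897 of the BDGP6.54 assembly annotation, a span of 25478 bp. Ilp1 (FBgn0044051, 9798420 to 9799050) and Ilp2 (FBgn0036046, 9799698 to 9800440) are on the plus strand. Ilp3 (FBgn0044050, 9801298 to 9802120), Ilp4 (FBgn0044049, 9803399 to 9804263) and Ilp5 (FBgn0044048, 9823349 to 9823897) are on the minus strand. Ilp8 (FBgn0036690) is on the same arm at 17029812 to 17032080, whereas Ilp6 (FBgn0044047, 2331493 to 2334658) and Ilp7 (FBgn0044046, 3667621 to 3668845) are on X. Ilp6 has 4 annotated transcripts of 634 to 1908 nt, and each of the other genes has 1. Ilp1 is a single-exon gene, and 258 of its 631 exon bases are shared on the same strand with CG32052, so that counts of the 2 genes may not be fully separated. The exon overlaps of the other members with neighbouring genes were 26 bases or fewer.

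The genes differed widely in abundance. Ilp6 had at least 28 counts in each of the 29 libraries used. Ilp2 and Ilp8 also had a count in each of them, and Ilp3 was at 0 in 1 library. Ilp5 was at 0 in 3 libraries, Ilp7 in 5, Ilp1 in 11 and Ilp4 in 19. The median count over the 29 libraries was 995 for Ilp6, 23 for Ilp3, 15 for Ilp2, 13 for Ilp5, 8 for Ilp8, 2 for Ilp1, 1 for Ilp7 and 0 for Ilp4, so that statements on Ilp1 and Ilp7 rest on few counts.

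**Figure D1:**
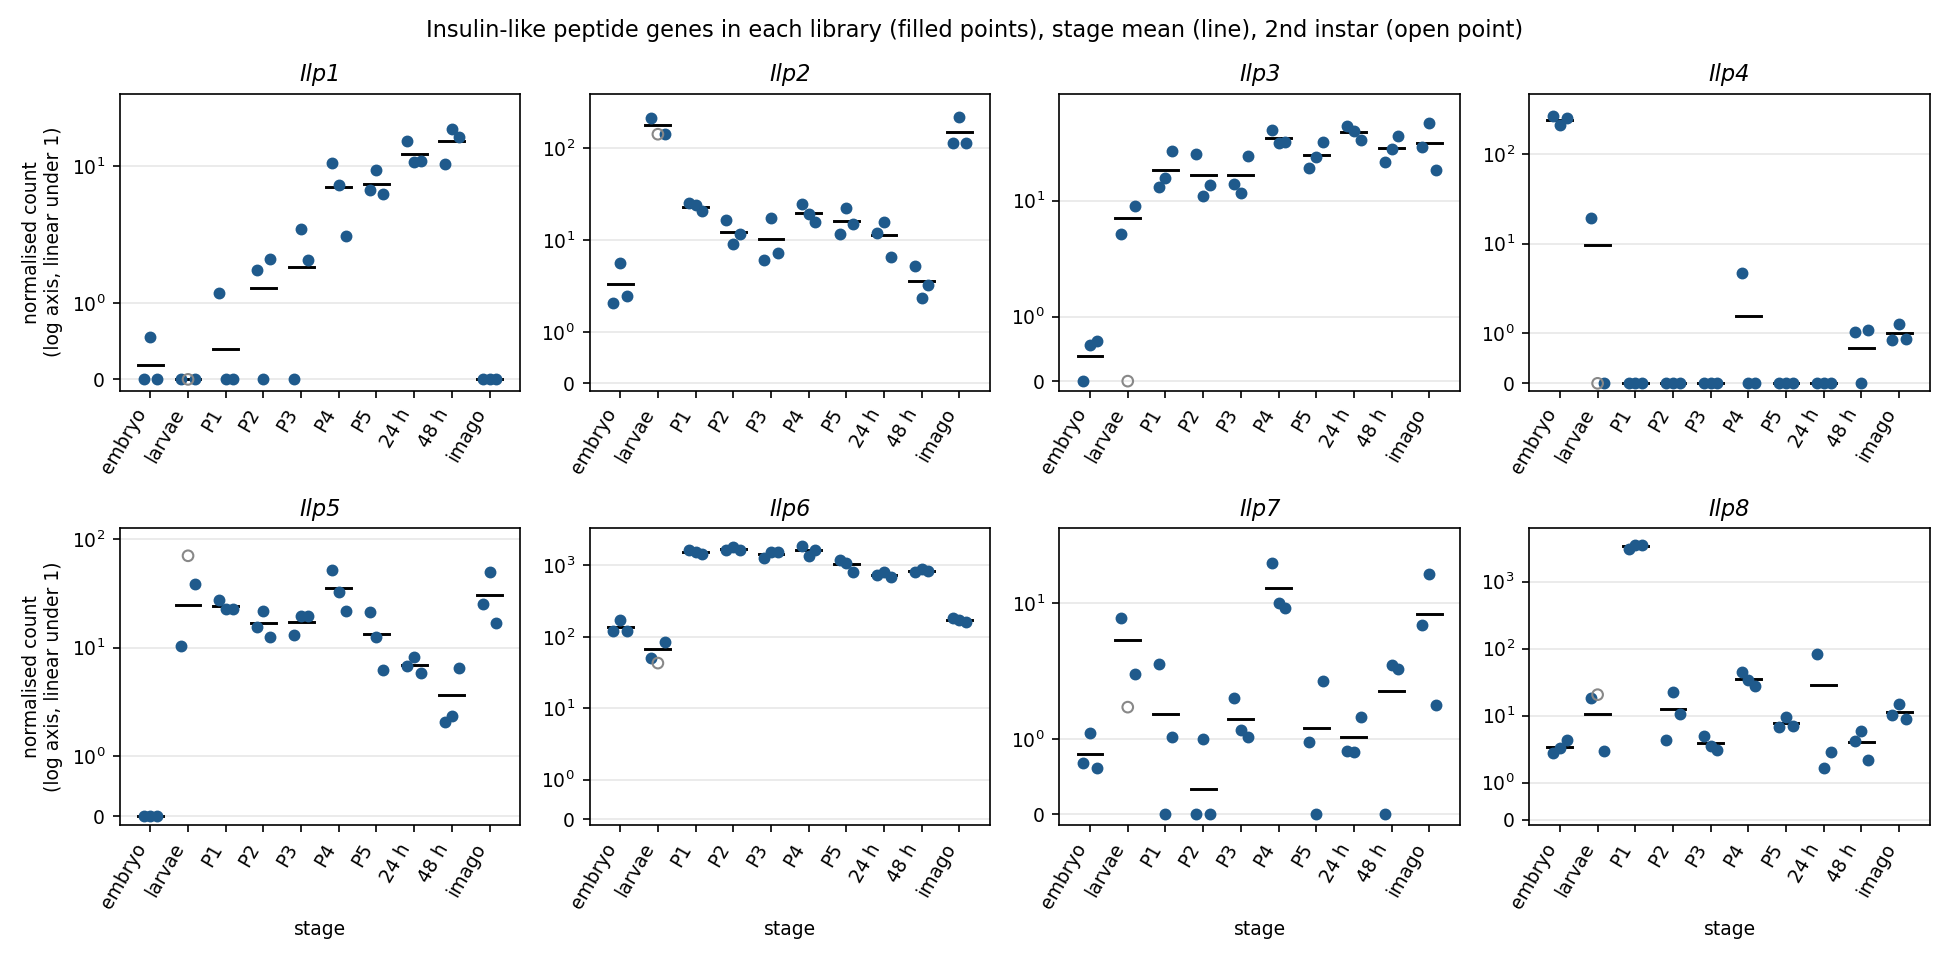
Normalised counts (vertical axis, logarithmic above 1 and linear below) of the 8 genes at the 10 stages (horizontal axis). Filled points are libraries used, lines are stage means, and open points are the 2nd instar library. Ilp8 stood at 3042 to 3504 in the P1 libraries and under 82 in all others, and Ilp6 stood above 670 in every pupal library.

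Across the course, Ilp8 at P1, Ilp6 in pupae, Ilp4 in embryos and Ilp2 in larvae and imagoes reached the highest levels in normalised counts. In the comparison of each stage with the other 9, the 8 genes were called higher in 23 and lower in 28 of 80 tests, against 21.5% higher and 26.2% lower over all genes and stages. In the comparison of each stage with the one before it, they were called higher in 12 and lower in 10 of 72 tests, with 16.7% and 13.2% over all genes. The shares of calls were thus 28.8% and 35.0% between stages, and 16.7% and 13.9% between neighbouring stages. Between neighbouring stages the members' shares were near those of all genes.

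The calls against the other stages fell unevenly over development. In embryos 1 member was higher and 6 lower, against 27.6% and 42.8% of all genes, and in larvae 1 was higher and 4 lower, against 29.1% and 39.3%. At P1 the members were 3 higher (Ilp5, Ilp6, Ilp8) and 2 lower, against 14.3% and 22.3%. At P2 only Ilp6 was higher and 3 were lower, against 13% and 21.1%, and at P3 likewise only Ilp6 was higher and 3 were lower, against 13.5% and 20.3%.

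P4 had 5 members higher (Ilp1, Ilp3, Ilp5, Ilp6, Ilp7) and 0 lower by limma, against 18.9% and 17.8% of all genes, and their median difference was 0.47, where that of all genes was near 0. At P5 the members were 2 higher and 2 lower, against 12.8% and 20.9%. The 24 h pupae also had 2 higher and 2 lower, against 14.9% and 24.6%, and the 48 h pupae had 3 higher and 3 lower, against 26.8% and 25%. In imagoes 4 were higher and 3 lower, against 43.8% and 28.3%. Among the smaller of these values, Ilp5 at P1 (0.44, adjusted p = 0.0447), Ilp8 in imagoes (-0.63, adjusted p = 0.0446) and Ilp3 at 48 h (0.35, adjusted p = 0.0425) lost their calls with many of the single libraries left out.

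**Figure D2:**
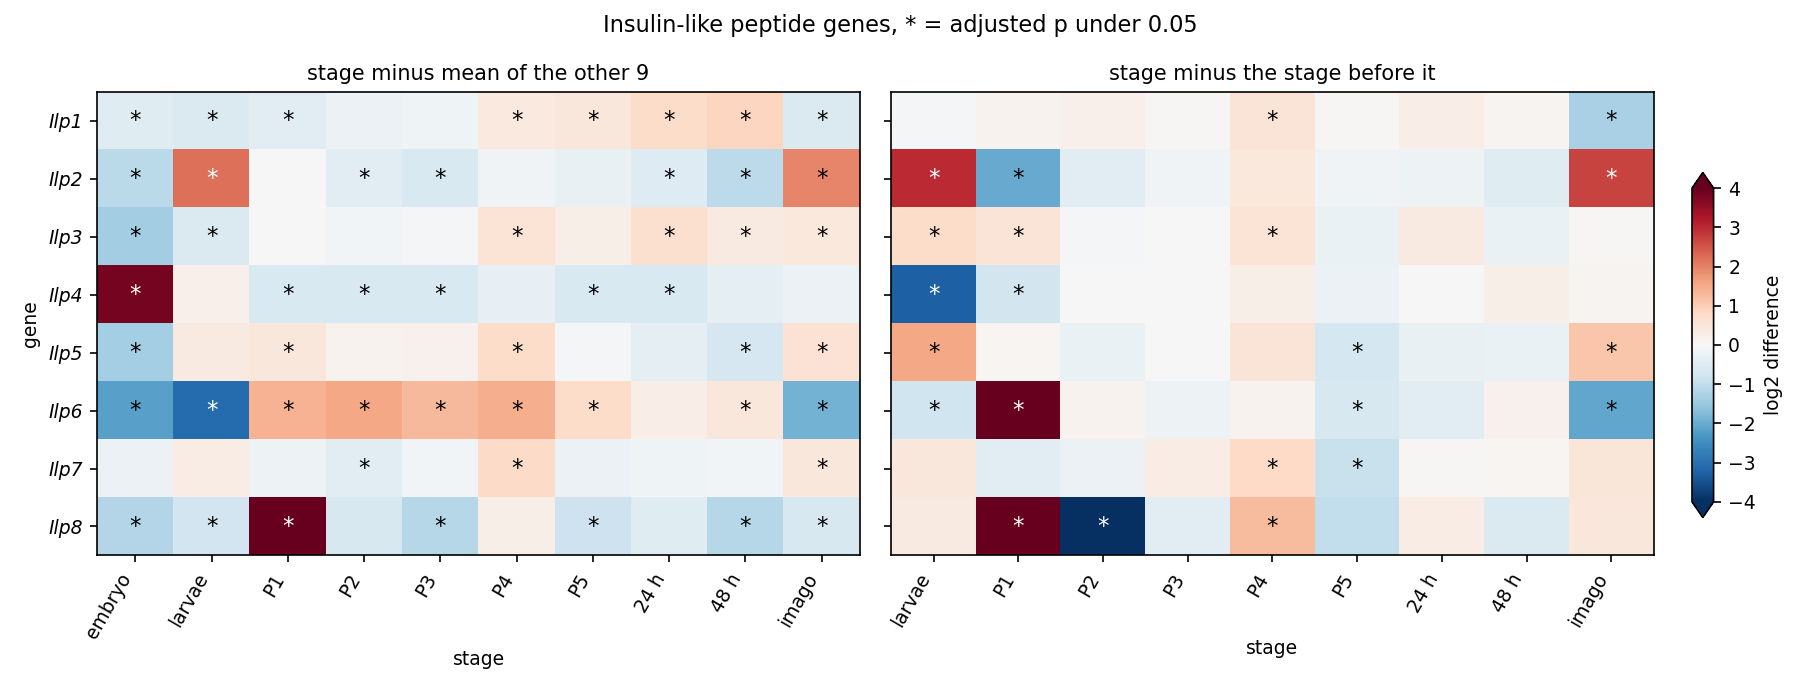
Log2 differences on the deposited scale (colour, saturating at 4 in either direction) of the 8 genes, for each stage minus the mean of the other 9 stages (left) and minus the preceding stage (right). Asterisks mark an adjusted p under 0.05. Ilp8 at P1 (6.58), Ilp4 in embryos (3.82) and Ilp6 in larvae (-3.08) had the largest differences between a stage and the others.

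Ilp8, the relaxin-like peptide of imaginal discs, was abundant at P1 alone among the stages sampled. Its counts were 2565, 3557 and 3425 in the P1 libraries, against 14 and 1 in the 1st and 3rd instar libraries. The next stage, P2, had 5, 23 and 10 counts. All 3 P1 libraries thus stood far above every other library, the highest of which had 97 counts. The stage mean was 3349 ± 266 normalised counts at P1 (SD, n = 3), 318 times that of larvae, or 398 times in CPM, and 94 times that of P4, the second highest stage. The difference between P1 and the other stages was 6.58 ± 0.27 (SE, limma, adjusted p = 5.9e-15), and 10 of the 14047 genes had a larger one.

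How fast Ilp8 rose cannot be told, since the time just before puparium formation was not sampled. Its fall lay between the neighbouring stages P1 and P2. The mean at P2 was 12.6 ± 9.4 normalised counts, and that at P1 was 266 times higher. On the log2 scale P2 fell by 6.49 ± 0.37 relative to P1 (limma, adjusted p = 1.19e-11), which was the lowest difference of all 14047 genes in this step. Between P1 and P2 few genes moved at all, with 2.72% called higher and 3.25% called lower, and Ilp8 was the only one of the 8 members called. The calls of Ilp8 at P1, at the step into it and at the step out of it were kept under each of the 38 alternatives.

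Ilp8 returned at lower levels at P4. Its counts were 38, 38 and 27 in P4 libraries, against 5, 3 and 3 in P3 libraries, without overlap. The difference was 1.25 ± 0.37 (limma, adjusted p = 0.0168), and 11.1% of all genes were called higher in this step. The call was lost without P3 replicate 2, P3 replicate 3 or P4 replicate 1 (adjusted p = 0.0519, 0.0525 and 0.0531, with differences of 1.24, 1.22 and 1.15), and after quantile normalization (0.98, adjusted p = 0.0684). At P5 the counts were 7, 9 and 8, and the difference to P4 of -0.98 was not called (adjusted p = 0.0688).

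The 24 h pupae were the stage where replicates differed most in Ilp8. Replicate 1 had 97 counts, against 2 and 4 in replicates 2 and 3. The same library had 77 counts of salivary glue genes, against 9 and 5 in the others, and its ecdysone response genes summed to 510 CPM, against 271 and 248 CPM. Their part in the result was not tested. Without this library, Ilp8 at 24 h was lower than at the other stages by 1.24 on the log2 scale (limma, adjusted p = 1.06e-05), whereas with it the difference was -0.50 and not called (adjusted p = 0.156). The difference of -0.98 between P5 and P4 was then called as well (adjusted p = 0.000746). It was also called without larvae replicate 1, larvae replicate 3 or 24 h pupae replicate 2 (adjusted p = 0.0434, 0.0437 and 0.0425).

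Genes of the ecdysone response and of the salivary glue were set beside Ilp8 because the steroid ecdysone triggers puparium formation. Of the 10 ecdysone response genes, 8 were called higher at P1 and 1 lower, against 14.3% and 22.3% of all genes. Among them br, an early response transcription factor, had the largest difference (2.93, limma, adjusted p = 6.27e-08), and ftz-f1, the competence factor of prepupae, had the lowest (-1.79, adjusted p = 3.81e-07). The list summed to 1221 to 1336 CPM at P2, against 1136 to 1767 CPM at P1, ranges that overlapped, whereas Ilp8 differed between these stages. Of the 5 glue genes, 4 were called higher at P1 and 0 lower, and Sgs7 differed by 4.19 (limma, adjusted p = 0.000759) and Sgs3 by 1.31 without a call (adjusted p = 0.318). Sgs3 was called without larvae replicate 1 (0.74, adjusted p = 0.0358) or 3 (1.88, adjusted p = 7e-06). The glue genes summed to 249 to 355 CPM at P1 and to 1646 CPM in the 3rd instar library, where Ilp8 had 1 count. The genes with the profile closest to Ilp8 over the 29 libraries, of 13259 searched, were CG34193 (Pearson r = 0.93), CG14664 (r = 0.93) and CG30471 (r = 0.91), where the libraries of a stage are not independent of each other.

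The receptors of this branch were scarce. Lgr3, the receptor of Ilp8, had 2 to 26 counts in the libraries used, and its stage mean was 10.2 ± 2.8 normalised counts at P1, against 15.2 ± 13.1 in larvae (SD). Lgr3 was called in none of the steps by limma or with voom weights, and its only call was a lower value in 48 h pupae (-0.36, limma, adjusted p = 0.0342). That call was lost without any 1 of the 48 h pupae replicates (-0.38, -0.30 and -0.39 without replicates 1, 2 and 3, adjusted p = 0.0726, 0.152 and 0.0706). Lgr4, a second receptor of the relaxin type, averaged 1.0 to 11.8 normalised counts per stage.

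Ilp6, which the fat body releases outside feeding periods, was the most abundant member from P2 to 48 h, the last pupal stage sampled. Its normalised counts were 1632, 1534 and 1447 in P1 libraries, against 50.3 and 83.7 in the larval libraries of the 1st and 3rd instars. The raw counts of 1376, 1558 and 1414 at P1 stood against 39 and 28 in larvae. The groups did not come near each other, with a mean 23.0 times higher at P1, or 48.3 times in CPM. The difference was 4.03 ± 0.18 (limma, adjusted p = 1.25e-14), rank 104 of the 14047 genes. Into this step fell 32.1% of all genes as higher and 28.9% as lower, and of the 8 members Ilp3, Ilp6 and Ilp8 were called higher, and Ilp2 and Ilp4 lower. For Ilp3 the difference was 0.52 (adjusted p = 0.0386), and it was not called without the 1st instar library (0.40, adjusted p = 0.196) or P1 replicate 3 (0.38, adjusted p = 0.161).

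Levels of Ilp6 then formed a plateau. Stage means were 1538 ± 93 at P1, 1682 ± 87 at P2, 1455 ± 172 at P3 and 1619 ± 243 at P4 (normalised counts, SD, n = 3 each). P1 overlapped with P2 and P3, and P4 overlapped with each of the others. All P3 libraries (1256 to 1555) were lower than all P2 libraries (1623 to 1782), but this step was not called (-0.21, limma, adjusted p = 0.868). At P5 the values were 1190, 1093 and 800, and at P4 they were 1841, 1359 and 1658, so that all P5 libraries were lower. This step fell by 0.65 ± 0.16 (limma, adjusted p = 0.0044) on the deposited scale, but by 0.29 on the log2(CPM + 1) scale without a call (adjusted p = 0.355). It was not called with log2(CPM + 0.1), voom weights or quantile normalization either (-0.30, -0.30 and -0.36), and 10.8% of all genes were called lower. The means at 24 h and 48 h were 738 ± 71 and 833 ± 42.

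Ilp6 was low at both ends of the course. Its normalised counts were 183, 169 and 160 in imagoes, against 793, 877 and 828 in 48 h pupae, and these groups were well apart. Imagoes fell by 2.09 ± 0.16 (limma, adjusted p = 6.3e-11), a mean 4.87 times lower, in a step where 20.9% of all genes were called lower. Embryos had 121, 173 and 121, above both larval libraries, and larvae fell by 0.81 ± 0.18 relative to embryos (adjusted p = 0.000426). In CPM the larval mean was 6.33 times lower, against 2.07 times in normalised counts. Against the other 9 stages, Ilp6 was called higher at P1 to P5 and at 48 h, and lower in embryos, larvae and imagoes, and each of these 9 calls was kept under all 38 alternatives.

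Genes of the fat body were set beside Ilp6 at P2, its highest stage. Among 6 larval serum and fat body genes, Fbp1, the receptor for larval serum proteins, differed most from the other stages (5.56, limma, adjusted p = 0.000403), and Lsp1alpha, a larval storage protein, least (0.72, not called, adjusted p = 0.711, but 1.48 with adjusted p = 0.000101 without larvae replicate 3). In all, 2 of the 6 were called higher at P2 and 0 lower, against 13% and 21.1% of all genes. The summed level of the 6 genes was 89167 to 101819 CPM at P2, and it was 21868 to 23728 CPM at 24 h and 622 to 770 CPM in imagoes, stages at which Ilp6 was lower too. The courses were not the same throughout. At P4 the list summed to 49052 to 61053 CPM, against 94537 to 102304 CPM at P3, whereas Ilp6 overlapped between these stages, and the 3rd instar library had 58005 CPM and low Ilp6. The part of fat body RNA in the level of Ilp6 was not tested. The closest profiles to Ilp6 were those of CG34296 (r = 0.97), Hsp23, a small heat shock protein (r = 0.97), and LysX, a lysozyme (r = 0.96).

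Ilp4, an embryonic peptide of the midgut and mesoderm, was found almost only in embryos. Its counts were 383, 373 and 404 in embryos, and 15 and 0 in the 1st and 3rd instar libraries. From P1 to P3 all 9 libraries were at 0, and later libraries held at most 4 counts. The embryonic mean was 239 ± 28 normalised counts (SD, n = 3), 24.7 times that of larvae, or 40.6 times in CPM, and the larval mean rests on the 1st instar alone. Embryos differed from the other stages by 3.82 ± 0.17 (limma, adjusted p = 6.67e-15), with 27.6% of all genes called higher and 42.8% lower. Ilp4 was the only member called higher there, and 6 members were called lower.

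Larvae fell by 3.26 ± 0.25 in Ilp4 relative to embryos (limma, adjusted p = 1.63e-10). Against the other stages, larvae were not called (0.20, adjusted p = 0.393), but without the 1st instar library the value was -0.54 and called lower (adjusted p = 0.00839), and without the 3rd instar library 0.94 and called higher (adjusted p = 5.73e-05). P1 libraries, all at 0, were at least 9.08-fold lower than larvae with 3 counts over the group taken as the limit, or 8.10-fold in CPM. That call (-0.74, adjusted p = 0.0151) was absent without the 1st instar library, where both groups were at 0. The closest profiles belonged to lin-28, an RNA-binding protein of early development (r = 0.99), CG8960 (r = 0.99) and CG43390 (r = 0.99).

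Ilp2, the main growth-promoting peptide of the brain cells, was high in imagoes and, in normalised counts, in both larval libraries. Its counts were 164 and 47 in larvae of the 1st and 3rd instars, against 3, 10 and 4 in embryos. In normalised counts these were 211 and 140 in larvae, against 2.0, 5.5 and 2.5 in embryos, with no overlap. The difference was 2.98 ± 0.23 (limma, adjusted p = 1.11e-10), and the larval mean was 52.5 times higher, or 22.7 times in CPM. The larval libraries were far apart in CPM (12.2 ± 12.3, SD), with the 1st instar higher. In this step 31.9% of all genes were called higher and 25.2% lower, and of the members Ilp2, Ilp3 and Ilp5 were called higher and Ilp4 and Ilp6 lower. The call of Ilp3 (0.73, adjusted p = 0.0051) was lost without the 3rd instar library (0.61, adjusted p = 0.0547) and on the log2(CPM + 1) scale (0.36, adjusted p = 0.264).

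From P1 to 48 h Ilp2 was low, and in normalised counts it stood below both larval libraries. The P1 libraries had 24.9, 23.6 and 20.5 normalised counts, a mean 7.65 times lower than in larvae, or 4.78 times in CPM (-2.00 ± 0.23, limma, adjusted p = 8.1e-08). In CPM, P1 had 2.55 ± 0.34 and larvae 12.2 ± 12.3 (SD), and most of the larval mean came from the 1st instar library. The fall in CPM relative to the 3rd instar library alone was thus much smaller. That library had 40.1 normalised counts per CPM, against 8.72 to 9.36 in the P1 libraries. Stage means from P2 to 24 h lay between 10.2 and 19.7, with neighbours in that order overlapping. The lowest pupal level was reached at 48 h, with 5, 2 and 3 counts. Imagoes had 132, 171 and 126 counts, and their mean was 40.9 times higher than in 48 h pupae (2.70 ± 0.20, limma, adjusted p = 4.28e-11), with 37.6% of all genes called higher. Imagoes, with 147 ± 60 normalised counts, overlapped with larvae, which had 176 ± 50 (SD).

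Ilp5, a partner of Ilp2 in the same cells whose transcription follows feeding, was likewise higher in imagoes than in late pupae. It was at 0 in all 3 embryo libraries, against 8 and 13 counts in the 1st and 3rd instar libraries. With 3 counts over the embryo group taken as the limit, larvae were at least 9.90-fold higher than embryos in CPM and at least 39.8-fold higher in normalised counts, where the 1st and 3rd instar libraries alone gave 16.7 and 62.9. The difference was 1.56 ± 0.25 (limma, adjusted p = 1.22e-05). Counts in imagoes were 29, 39 and 19, against 2, 2 and 6 in 48 h pupae, and the groups did not overlap. This difference was 1.12 ± 0.23 (limma, adjusted p = 0.000172), 8.31 times in normalised counts. After quantile normalization it was 0.48 and not called (adjusted p = 0.0649).

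Unlike Ilp2, Ilp5 was not called lower at P1 than in larvae. The P1 libraries had 27.3, 22.6 and 22.5 normalised counts, against 10.3 and 38.8 in the larvae, whose range enclosed them. The difference of 0.07 was not called (adjusted p = 0.839), although on the log2(CPM + 1) scale P1 was higher by 0.88 (adjusted p = 0.00754). The stage mean of Ilp5 was highest at P4, with 44, 36 and 21 counts. In normalised counts P4 (21.7 to 51.6) overlapped with imagoes (16.8 to 49.2). Ilp5 fell by 0.70 ± 0.23 at P5 (22, 12 and 7 counts, limma, adjusted p = 0.031). That call was lost without P4 replicate 1 or 2 (-0.51 and -0.71, adjusted p = 0.17 and 0.0688) and without P5 replicate 2 or 3 (-0.70 and -0.53, adjusted p = 0.0771 and 0.169), and after quantile normalization (-0.47, adjusted p = 0.158). It was also lost with all 30 libraries (-0.70, adjusted p = 0.0718), on the log2(CPM + 0.1) scale (-1.06, adjusted p = 0.0821) and with voom weights (-1.09, adjusted p = 0.0739).

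Ilp3, the third peptide of these cells, followed a different course and stayed up in late pupae. Embryos had 0, 1 and 1 counts, larvae 4 and 3, and P1 libraries 11, 16 and 26. The 24 h pupae had 52, 49 and 46 counts, and the 48 h pupae 21, 24 and 33. In imagoes 34, 37 and 21 counts were found, within the range of the late pupae. Ilp3 was called higher at 24 h than at the other stages (0.64 ± 0.14, limma, adjusted p = 0.00084), where 14.9% of all genes were, and Ilp1 was the only other member. The difference between imagoes and 48 h pupae was not called (0.05, adjusted p = 0.844), although after quantile normalization the difference was -0.47 (adjusted p = 0.0381).

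The values of Ilp3, Ilp5 and Ilp7 in imagoes depended on the scaling. Against the other stages they were called higher by 0.41, 0.58 and 0.44 on the deposited scale (adjusted p = 0.0134, 0.0039 and 0.0152), yet after quantile normalization the signs were reversed, at -0.44, -0.24 and -0.11. Without imago replicate 2, which had the highest normalised counts of all 3 genes, none was called (0.22, 0.34 and 0.21, adjusted p = 0.22, 0.107 and 0.276). The higher level of Ilp2 in imagoes was kept throughout, at 1.94 ± 0.15 on the deposited scale and 1.18 after quantile normalization.

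Within their sum, corrected for transcript length, the 3 peptides of the brain cells changed places. Ilp2 made up 65.0% to 73.5% of the sum in imagoes, against 7.3% to 18.8% in 48 h pupae, and 69.2% to 91.7% in larvae. Ilp3 made up 70.6% to 81.7% in 48 h pupae and 57.0% to 67.0% in 24 h pupae, against 27.4% to 38.4% at P4. Ilp5 held 41.7% to 51.1% at P1 and 40.8% to 54.1% at P4, against 15.7% to 18.3% at 24 h. In each of these comparisons with a pupal stage the ranges did not overlap, and the shares were not tested.

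**Figure D3:**
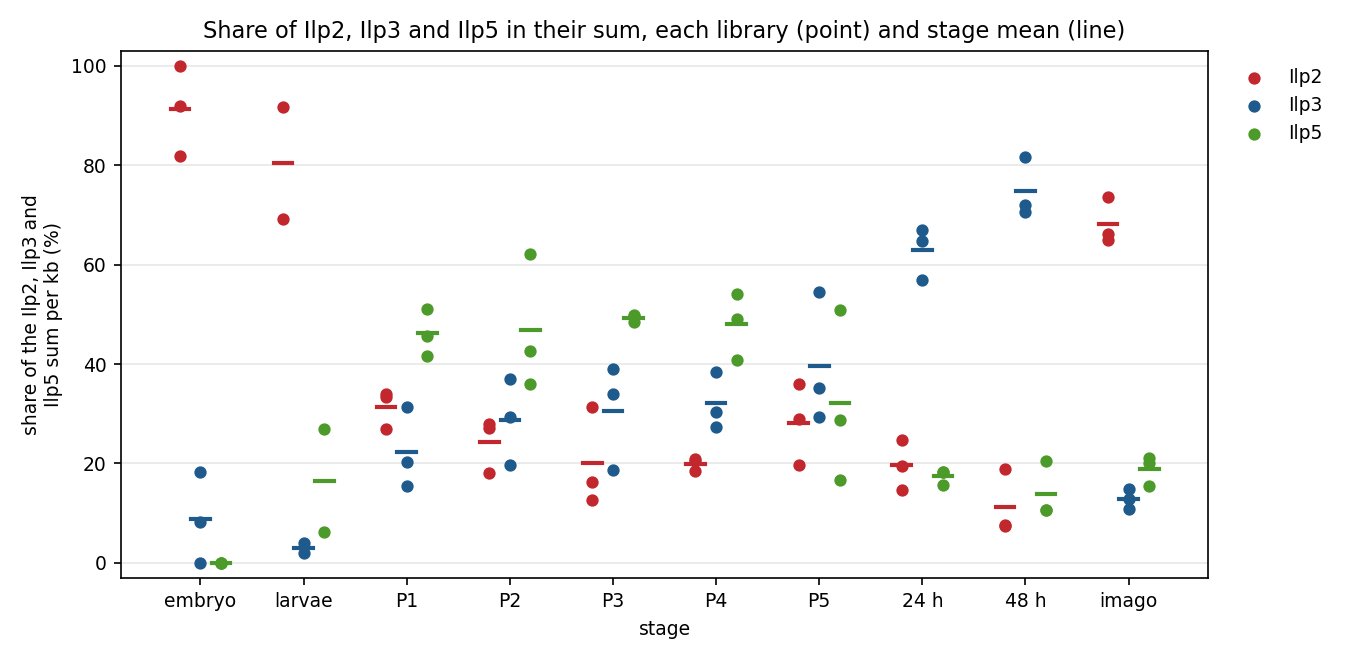
Share (%) of Ilp2, Ilp3 and Ilp5 in their summed normalised count per kb of transcript (vertical axis) at the 10 stages (horizontal axis). Points are libraries and lines are stage means. Ilp2 led in larvae, imagoes and, on few counts, embryos, Ilp5 on average from P1 to P4, and Ilp3 at 24 h and 48 h, where its mean shares were 62.9% and 74.8%.

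Ilp1, known from the insulin-producing cells of pupae, was seen mainly in pupal libraries. It had at most 1 count in embryos, larvae and P1. The counts were 9, 8 and 3 at P4, 7, 9 and 7 at P5, 18, 13 and 15 at 24 h, and 10, 16 and 15 at 48 h. No count was found in any of the 3 imago libraries. Imagoes were thus at least 15.1-fold lower than 48 h pupae, with 3 counts over the imago group taken as the limit (-1.31 ± 0.16, limma, adjusted p = 3.37e-07).

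Against the other stages Ilp1 was called higher at P4, P5, 24 h and 48 h, with the largest value at 48 h (0.87 ± 0.12, limma, adjusted p = 2.89e-06). The P4 call was lost without P4 replicate 1 or 2 (0.29 and 0.38, adjusted p = 0.125 and 0.0771) and after quantile normalization (0.21, adjusted p = 0.21), and the P5 call without P5 replicate 2 (0.40, adjusted p = 0.0517). CG32052, with which Ilp1 shares exon bases, was also at its highest late, with 39 to 42 counts at 48 h and 17 to 20 at 24 h. In imagoes CG32052 had 33 to 45 counts where Ilp1 had 0. How reads of the shared bases were assigned between the 2 genes was not tested. The profiles closest to Ilp1 were CG42763 (r = 0.92), CG42792 (r = 0.89) and MtnB, a metallothionein (r = 0.86).

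Ilp7, a peptide of nerve cord neurons that innervate the gut and reproductive tract, was scarce, and its stage means were highest at P4, in imagoes and in larvae. Larvae had 6 counts in the 1st instar library and 1 in the 3rd, a mean of 5.4 ± 3.4 normalised counts (SD). Its counts were 17, 11 and 9 at P4, against 2, 1 and 1 at P3. At P5 they were 1, 0 and 3. All P4 libraries were higher than all libraries of the neighbouring stages. The increase was 0.80 ± 0.21 (limma, adjusted p = 0.0077) and the decrease at P5 was -0.90 ± 0.21 (adjusted p = 0.00255), and both were kept under all 37 alternatives that could be run. Imagoes had 8, 13 and 2 counts, so that replicate 3 lay in the range of the 48 h pupae (0, 3 and 3).

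Among 5 neuronal genes set beside Ilp7 at P4, brp had the largest difference (0.67, limma, adjusted p = 0.237) and nSyb the lowest (-0.48, adjusted p = 0.298), and neither was called, although without larvae replicate 3 nSyb was called lower (-0.68, adjusted p = 4.9e-05). Of the 5 neuronal genes, 1 was called higher at P4 and 0 lower, against 18.9% and 17.8% of all genes. The summed neuronal level was 129 to 175 CPM at P4, against 149 to 198 CPM at P3, and these ranges overlapped. The closest profile to Ilp7 was that of Proc, the neuropeptide proctolin (r = 0.79), followed by flap (r = 0.78) and CG17325 (r = 0.77).

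P4 was thus the pupal stage at which most members were called in one direction. In the step from P3 to P4, Ilp1, Ilp3, Ilp7 and Ilp8 were called higher and none lower, that is 4 of 8 members, against 11.1% higher and 8.24% lower over all genes. With voom weights 2 members were called higher in this step and 0 lower, and at an unadjusted p under 0.05 the limma counts were 6 and 0. The median difference of the 8 members was 0.50, and that of all genes was 0.10. Beside Ilp7 and Ilp8, described above, Ilp3 had 35, 35 and 31 counts at P4, against 14, 10 and 24 at P3 (0.56 ± 0.19, limma, adjusted p = 0.0395), and Ilp1 had 9, 8 and 3, against 0, 3 and 2 (0.50 ± 0.16, adjusted p = 0.0338).

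Both of the smaller calls depended on single libraries. Ilp1 lost its call without P3 replicate 1 or without P4 replicate 1 or 2 (0.31, 0.39 and 0.48, adjusted p = 0.208, 0.13 and 0.109). Ilp3 lost it without P3 replicate 1 or 2 (0.52 and 0.46, adjusted p = 0.103 and 0.171) or without P4 replicate 1, 2 or 3 (0.49, 0.60 and 0.60, adjusted p = 0.108, 0.0751 and 0.0585). After quantile normalization neither was called (0.30 and 0.24 for Ilp1 and Ilp3, adjusted p = 0.264 and 0.443). At P5 the direction turned, with Ilp5, Ilp6 and Ilp7 called lower and none higher, against 10.8% lower and 7.93% higher over all genes. With voom weights 1 member was called lower there. In the steps to P3, to 24 h and to 48 h no member was called by limma, against 4.19% and 2.48%, 4.38% and 7.36%, and 18.4% and 12.2% of all genes called higher and lower. At an unadjusted p under 0.05, 0 members passed at P3, 1 was lower at 24 h and 1 was lower at 48 h, and with voom weights 1 was called lower at 24 h and 0 in the other of these steps.

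Summed over the family and corrected for transcript length, the level was 5185 to 5610 normalised counts per kb at P1, against 389 to 444 in larvae. It was 392 to 684 in imagoes, against 822 to 924 in 48 h pupae. The leading member differed between stages. Ilp4 made up 67.5% of the mean level in embryos and Ilp6 30.1%. Ilp2 made up 63.0% in larvae, with Ilp6 at 15.4% and Ilp5 at 12.3%. At P1, Ilp8 held 71.0% and Ilp6 27.0%. From P2 to 48 h, Ilp6 held 83.8% to 94.6%, and in imagoes Ilp2 held 43.0%, Ilp6 32.0%, Ilp5 12.4% and Ilp3 8.2%. Lengths of Ilp6 were averaged over its 4 transcripts, and its shares depend on that.

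**Figure D4:**
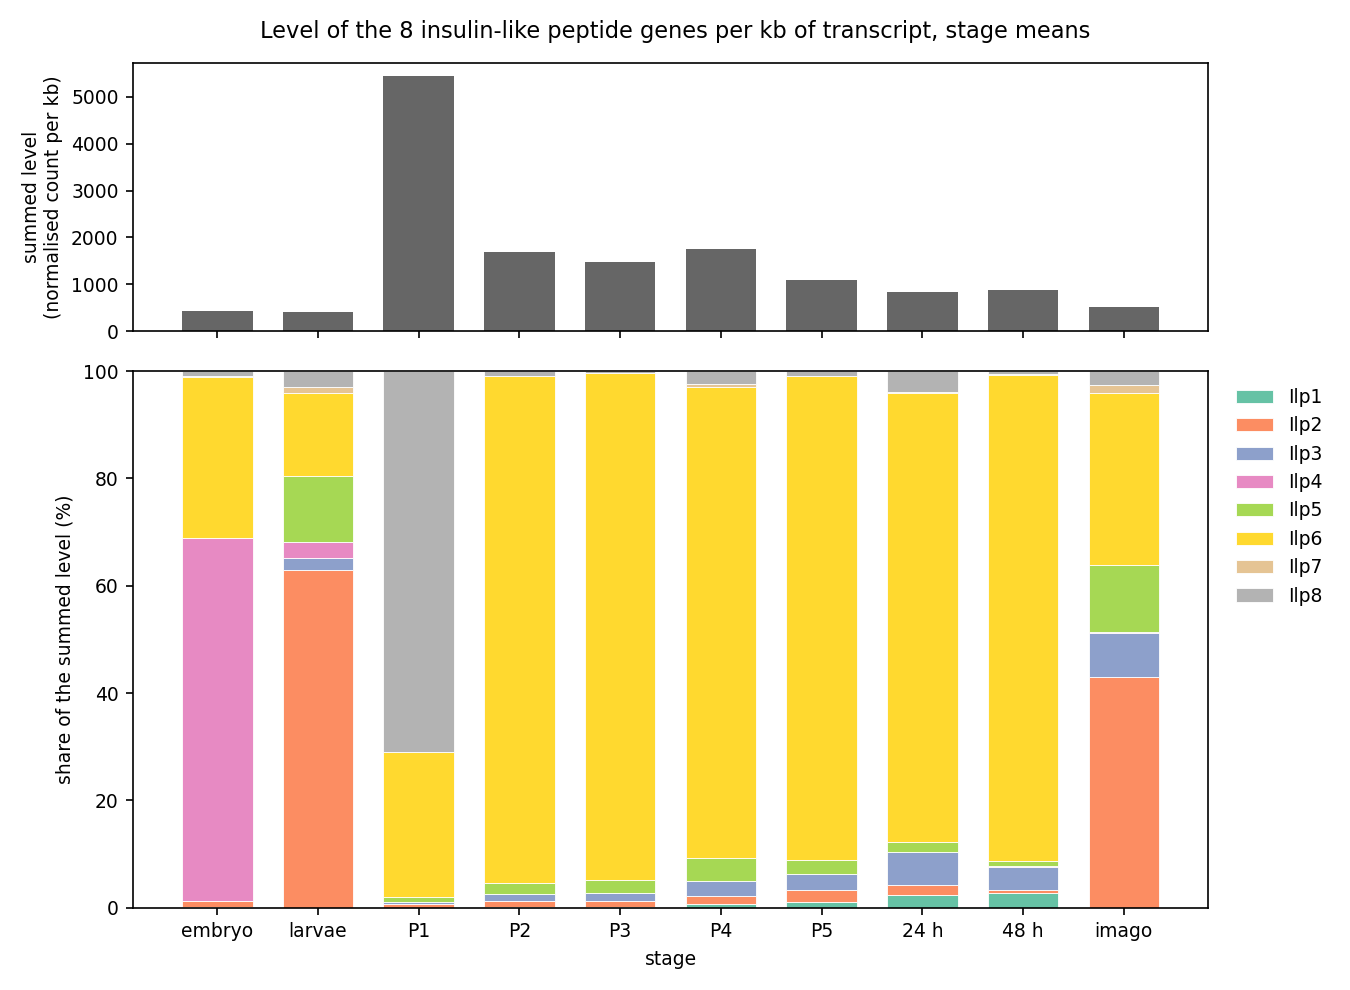
Summed level of the 8 genes in normalised counts per kb of transcript (top, vertical axis from 0) and the share of each gene in it (bottom, %), both as stage means at the 10 stages (horizontal axis). Ilp4 in embryos (67.5%), Ilp2 in larvae (63.0%), Ilp8 at P1 (71.0%) and Ilp6 from P2 to 48 h took the largest shares.

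Neighbouring genes had correlations of both signs. Among the 10 pairs within the cluster of Ilp1 to Ilp5, correlations of the deposited values over the 29 libraries ran between -0.79 (Ilp3 and Ilp4) and 0.57 (Ilp2 and Ilp5), with a median of -0.17. Ilp4 was at 0 in 19 of these libraries and Ilp1 in 11, which limits the pairs that hold them. Pairs among Ilp2, Ilp3 and Ilp5 ran between 0.13 and 0.57. Among the other 18 pairs, those not within the cluster, correlations ran between -0.60 and 0.49, with a median of 0.07. These are descriptions, since libraries of a stage share their biology. The closest profiles to Ilp2 were those of Obp49a, an odorant-binding protein (r = 0.93), CG5567 (r = 0.92) and betaTry, a trypsin (r = 0.92). Those closest to Ilp3 were CG4250, vir-1 and CG13540 (r = 0.89 each), and to Ilp5 CG12868 (r = 0.92), Chmp1 (r = 0.89) and CG44014 (r = 0.89).

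Genes that receive or modulate the signal were described by a list of 23 insulin signalling genes, of which 22 were listed. They were called higher mainly in embryos, where 13 rose and 2 fell relative to the other stages, against 27.6% and 42.8% of all genes. Their median difference was 0.50, against -0.18 for all genes. InR, the receptor, had the largest range of stage means of the list, at 741 ± 72 normalised counts in embryos and 26.7 ± 19.0 at 24 h (SD). Larvae had 74.7 ± 80.3 normalised counts of InR, and fell by 3.16 ± 0.48 relative to embryos (limma, adjusted p = 5.27e-06), along with 9 other genes of the list. In this step 10 of the 22 genes were thus called lower and 1 higher, against 25.2% and 31.9% of all genes.

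At P1, when Ilp6 and Ilp8 were high, 9 of the 22 genes were called higher than in larvae and 1 lower, against 32.1% and 28.9% of all genes. InR rose by 1.26 ± 0.48 (limma, adjusted p = 0.028), and ImpL2, a secreted protein that binds insulin-like peptides, by 0.82 ± 0.25 (adjusted p = 0.00612). Both rest on the 3rd instar library, without which the differences were 0.33 and 0.18 and not called (adjusted p = 0.612 and 0.493), and InR was not called without P1 replicate 1 either (1.04, adjusted p = 0.1).

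Thor, a translation inhibitor that foxo activates, had the second largest range. It averaged 5968 ± 1394 normalised counts at P4 and 443 ± 33 in embryos (SD), and was called higher than at the other stages from P1 to P5. At 24 h it fell by 1.90 ± 0.21 relative to P5 (limma, adjusted p = 6.26e-07), and foxo fell by 1.54 ± 0.36 (adjusted p = 0.0053). They were among 7 genes lower and 0 higher, against 7.36% and 4.38% of all genes. Imagoes rose by 2.20 ± 0.21 in Thor (adjusted p = 4.14e-09) and by 2.25 ± 0.36 in foxo (adjusted p = 1.02e-05) relative to 48 h pupae. Here 7 of 22 genes rose and 3 fell, against 37.6% and 20.9% of all genes. The receptor substrate chico was almost level, with stage means between 177 and 308.

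The secreted modulators differed among themselves. ImpL2 rose at P5, to 1700 ± 219 normalised counts, against 690 ± 89 at P4 (1.26 ± 0.22, limma, adjusted p = 0.000115), and was highest in embryos at 2474 ± 253 (SD). Sdr, a secreted decoy of the receptor, rose at P4 by 1.00 ± 0.17 relative to P3 (adjusted p = 6.58e-05), was nearly absent at 48 h with 1 to 2 counts, and rose in imagoes by 2.04 ± 0.17 (adjusted p = 1.9e-10). The binding partner gene conv moved the opposite way, and fell in imagoes by 3.23 ± 0.13 relative to 48 h pupae (adjusted p = 2.53e-16), with 38.2 ± 1.2 normalised counts in imagoes and 606 ± 14 in 48 h pupae.

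**Figure D5:**
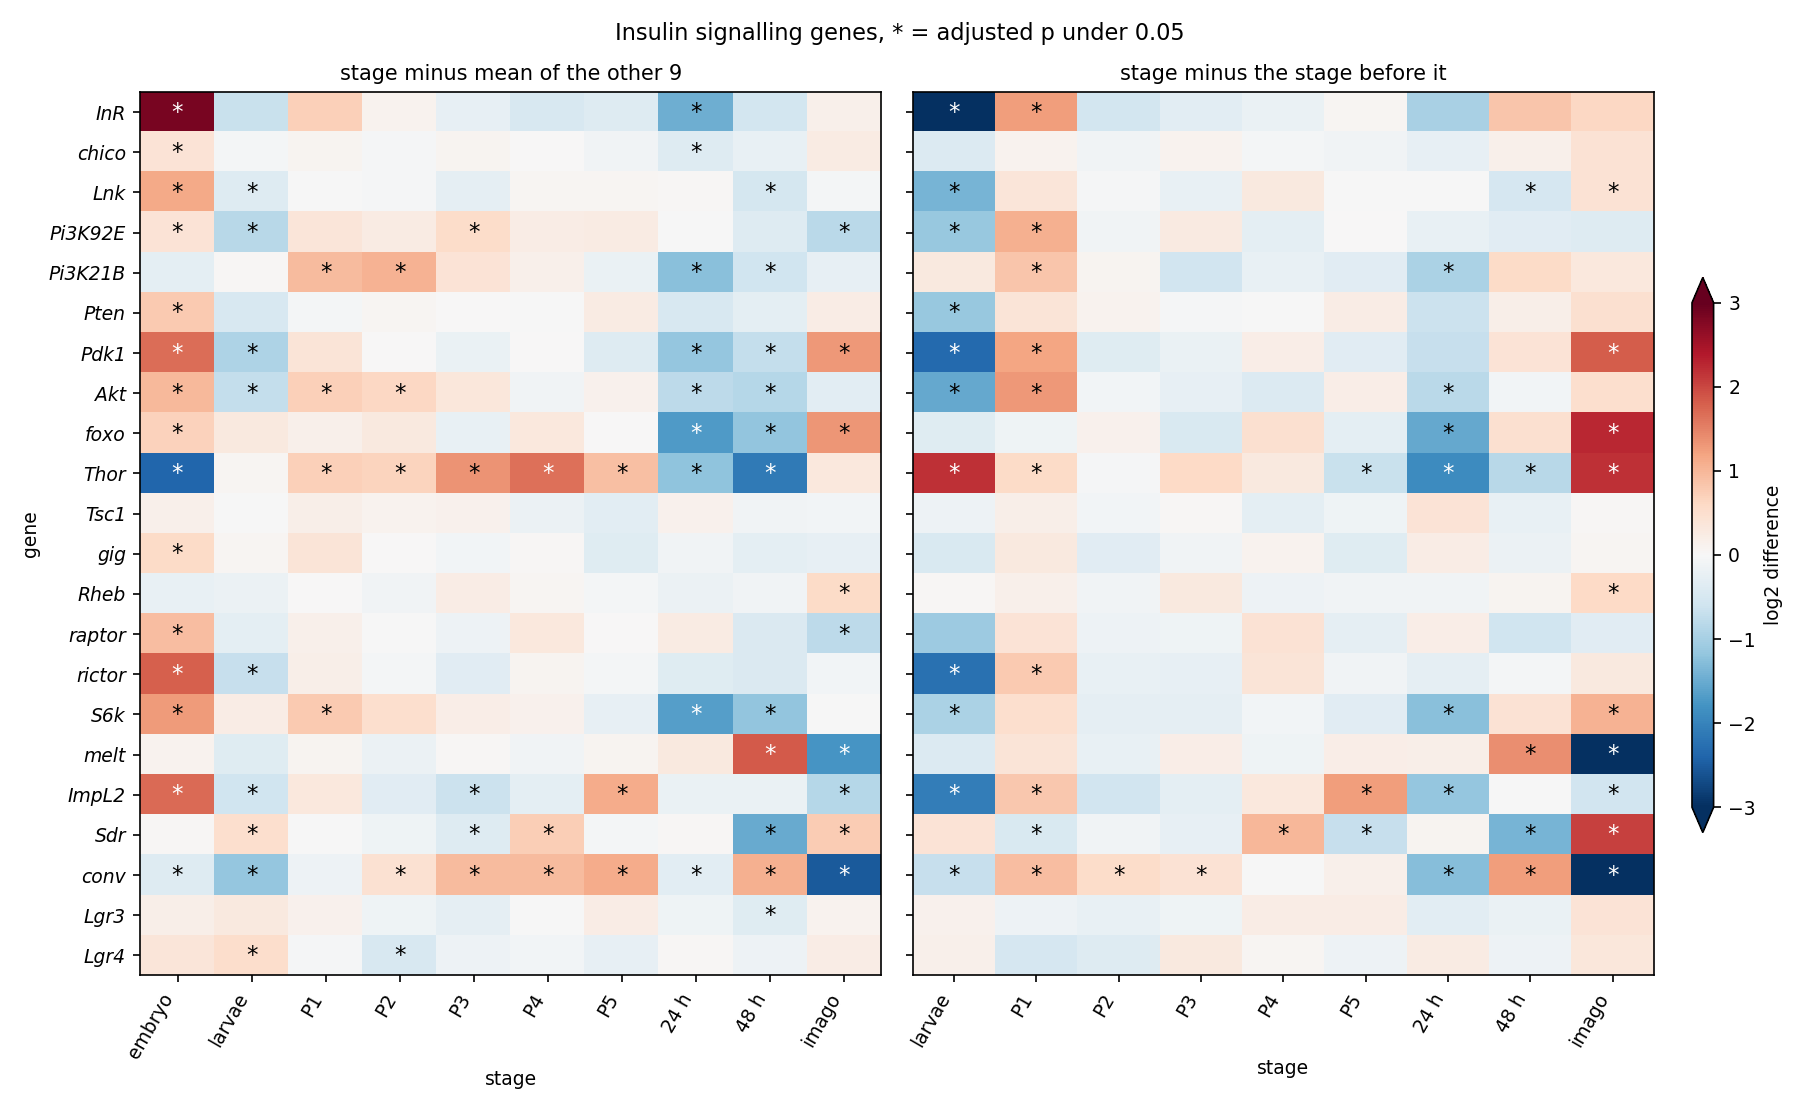
Log2 differences on the deposited scale (colour, saturating at 3 in either direction) of 22 insulin signalling genes, for each stage minus the mean of the other 9 (left) and minus the preceding stage (right). Asterisks mark an adjusted p under 0.05. In embryos 13 genes were called higher, against 27.6% of all genes, and at 24 h after P5 7 were called lower, against 7.36%.

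Of 18 regulators of the insulin-producing cells, set beside Ilp2 in larvae, sun, a signal from the fat body, had the largest difference to the other stages (2.29, limma, adjusted p = 1.52e-08). Gbp1, a growth blocking peptide, had the lowest difference (-1.94, limma, adjusted p = 2.41e-06). Of the 18 genes, 3 were called higher in larvae and 6 lower, against 29.1% and 39.3% of all genes. On the log2(CPM + 1) scale the differences of sun and Gbp1 were 1.10 and -3.25.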

How the data were processed

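The members were chosen by gene identity and no expression value entered that choice, although earlier results of these data were known when members and lists were chosen. The authors filtered reads with fastp (default settings), pseudomapped them with Kallisto to the BDGP6.46 transcriptome, summed transcripts by gene and stabilized the variance with DESeq2, so that deposited values are on a log2 scale with a column for each library. The use of strand in counting is not given in the sources used here. The transformation was inverted, and 100% of values under 50 counts came out whole within 0.02 in each library. Depths rest on taking the smallest step as 1 count. No count-based test was used as the main result.

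The linear model held 29 libraries and 10 stages (limma 3.58.1 in R 4.3.3, eBayes with trend, no covariate, Benjamini-Hochberg over 14047 genes per comparison). It was tried on simulated counts with changes placed at P1 in the better counted genes. That simulation held no difference between instars and no changes in genes at the lowest counts. Named genes were the 8 members; InR, chico, foxo, Thor, ImpL2, Sdr, conv, Lgr3, Lgr4 and the 2 signalling genes with the largest range of stage means; of each other list the genes with the largest and lowest difference at the highest stage of a member; and the 3 genes best correlated with each member among those reaching 1 CPM in a stage. Places and lengths came from the BDGP6.54 annotation, whereas mapping used BDGP6.46. Of the lists, Tor and upd2 were not matched. Alternatives were the libraries used, the scale (log2 of CPM plus 1 or 0.1), voom weights, a filter of 1 CPM, quantile normalization, eBayes without trend, a replicate block and each library left out. *D. virilis* was not analysed here.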

Additional observations from a re-analysis of the deposited data

Results flagged for a closer look

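The 2nd instar larval library entered none of the comparisons, and 4 of the 8 genes stood there above 3 counts, the limit that a count of 0 allows. Ilp2 had 82 counts, Ilp5 had 41, Ilp6 had 25 and Ilp8 had 12. In normalised counts Ilp2 was level with the 3rd instar library (140 in each), Ilp5 (70.2) lay above both other instars (10.3 and 38.8), Ilp6 (42.8) lay below both (50.3 and 83.7), and Ilp8 (20.5) lay above both (18.1 and 3.0). These orders depend on the scale, since normalised counts per CPM were 10.1, 15.2 and 40.1 in the 1st, 2nd and 3rd instar libraries. In CPM, Ilp2, Ilp6 and Ilp8 of the 2nd instar lay between the other instars, and Ilp5 lay above both. Differences of this single library from the others were not tested.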

How the results depend on the processing

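Of 73 calls for the 8 genes, 42 were kept under every alternative that could be run. Members called lower between stages numbered 18 with voom weights, against 28. Reversed values were Ilp3 in imagoes (-0.44, and -0.47 relative to 48 h pupae), Ilp5 (-0.24) and Ilp7 (-0.11) in imagoes after quantile normalization, and Ilp4 in larvae without larvae replicate 1 (-0.54, against 0.94 without larvae replicate 3). With each of the 29 libraries left out in turn, members called higher and lower numbered 20 to 25 and 25 to 31 between stages, and 10 to 13 and 9 to 13 between neighbouring stages. For insulin signalling genes these were 35 to 42, 33 to 42, 19 to 31 and 23 to 29. Replicate numbers were not used to pair the samples in the main model. Deviations from the stage mean had a mean correlation of -0.003 between same-numbered libraries and 0.001 between libraries of different numbers. Of 29 libraries, 8 correlated best with their own number. Whether libraries of the same number share a batch was not tested. With the replicate block, members called higher and lower numbered 22 and 28 between stages and 12 and 10 between neighbouring stages. The filter of 1 CPM removed Ilp1 and Ilp7. Few counts limit Ilp1, Ilp4 after embryos and Ilp7. Each instar is 1 library, so that a difference between instars cannot be tested, and stage, pool and extraction cannot be told apart. Imagoes were males and pupae were of mixed sex, so that stage and sex cannot be told apart in comparisons with imagoes.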
